A study of Mus musculus with 4 samples.

Results

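Nanog-positive reprogrammed progenitor cells were examined in single-cell RNA libraries of the mouse rostral neocortex. A cell was counted as Nanog-positive when its barcode held at least 2 unique molecular identifiers (UMIs, counted molecules) of Nanog, a UMI of at least 5 of the 8 genes Cytl1, Lbhd2, Anxa1, Cd109, Timp1, Tppp3, Krt8 and Lgals7, and at most 2 UMIs of Ebf1, Ebf2 and Ebf3 together. Barcodes with at least 1000 UMIs, at least 500 genes and at most 10% mitochondrial UMIs were kept, and 398 of 28672 kept barcodes met the rule. The cells were thus chosen by their own UMIs of Nanog, the 8 markers and the Ebf genes, so the levels of those genes and the number of cells are a description with no test. The labels give the sampled cell type of every library as cortical neurons.

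The i4F-Nes group (genotype Nestin-Cre;i4F;ROSA-STOP-rtTA, 2 libraries) carried a cassette from which doxycycline switches on Pou5f1, Sox2, Klf4 and Myc (the 4 Yamanaka factors), with a transactivator released by Cre in Nestin-expressing neural progenitors and their progeny. The littermate CTR group (i4F;ROSA-STOP-rtTA, 2 libraries) carried the cassette and the silent transactivator without Cre. All pregnant females drank 0.2 mg/ml doxycycline from E10.5 to E14.5 (embryonic days), and cortex was taken at E15.5, after the treatment had ended in every group. Kept barcodes had median depths of 11697 to 15629 UMIs over the 4 libraries, and the number of embryos behind each library is not given in the sources used here. P-values for i4F-Nes against CTR therefore measure the spread between these libraries, which may be technical. In the test within i4F-Nes the library is a block. Its p-values measure how far differences between cell classes vary between the 2 libraries, which may also be technical.

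Nanog is a homeodomain transcription factor of the pluripotent epiblast and of embryonic stem cells, where it acts with Pou5f1 (Oct4) and Sox2. It is not part of the normal program of the cortex. Radial glia, the neural stem cells of the developing cortex, use Sox2 and Pax6 together with Notch effectors such as Hes1 and Hes5, and give rise to Eomes-expressing intermediate progenitors and then to neurons. Nanog is not one of the 4 factors of the cassette.

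The promoter of Nanog is known for a joint site for Oct4 and Sox2, and it is shown because Nanog defines the cells and both factors are encoded by the cassette. The window below is the 250 bases before the first RefSeq start of Nanog, chr6:122707239-122707488, plus strand, build GRCm38.p6, printed 5′ to 3′ with the joint motif in capitals. The joint motif was the octamer ATTTGCAT without its first base, then any 1 base, then the Sox motif ACAATG.
Nanog: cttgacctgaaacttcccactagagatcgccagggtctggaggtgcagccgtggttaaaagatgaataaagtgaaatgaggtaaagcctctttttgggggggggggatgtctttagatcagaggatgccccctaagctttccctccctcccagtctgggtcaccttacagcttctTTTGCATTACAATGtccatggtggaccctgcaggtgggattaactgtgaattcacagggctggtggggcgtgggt
The match lies 75 to 62 bases before the start. Searched on both strands, the joint motif was found in the windows of 1 of 27025 genes, which was Nanog, or 0.0037%. The site in Nanog was known beforehand and the motif fits it, so this match is a description with no test. The whole octamer, with its first base, had 0 matches in the Nanog windows. The whole octamer was found for 1.81% of all genes with a window, and the Sox motif, which the joint motif contains, for 12.2%. Among genes at least 2-fold higher in Nanog-positive cells than in radial glia, as defined below, 456 had a window, and 17 of them held the octamer (3.73%). It was held by 15 of the 693 genes with a window among those at least 2-fold lower (2.165%) and by 1.51% of all genes compared. A match describes letters in a window and was not tested as a binding site. The gene (ENSMUSG00000012396) lies on chromosome 6 at 122707489 to 122714633 in GENCODE M21. Pou5f1 (ENSMUSG00000024406) lies on chromosome 17 at 35506018 to 35510772.

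Nanog-positive cells were found in both i4F-Nes libraries and in neither CTR library. Replicate 1 held 296 among 8125 kept barcodes, a share of 3.64% (exact binomial 95% interval 3.25% to 4.07%). Replicate 2 held 102 among 6931, a share of 1.47% (1.20% to 1.78%). The CTR libraries held 0 of 6456 and 0 of 7160, which allows shares of up to 0.0465% and 0.0419% by a limit of 3 counts; the exact binomial 95% intervals, drawn in the plot of shares, end at 0.0571% and 0.0515%. The mean i4F-Nes share was 2.56% ± 1.54 (SD, n = 2), and the first library had 2.48 times the share of the second. These intervals cover counting error only, and the difference between groups was not tested because the marker genes came from a contrast of these libraries.

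**Figure D1:**
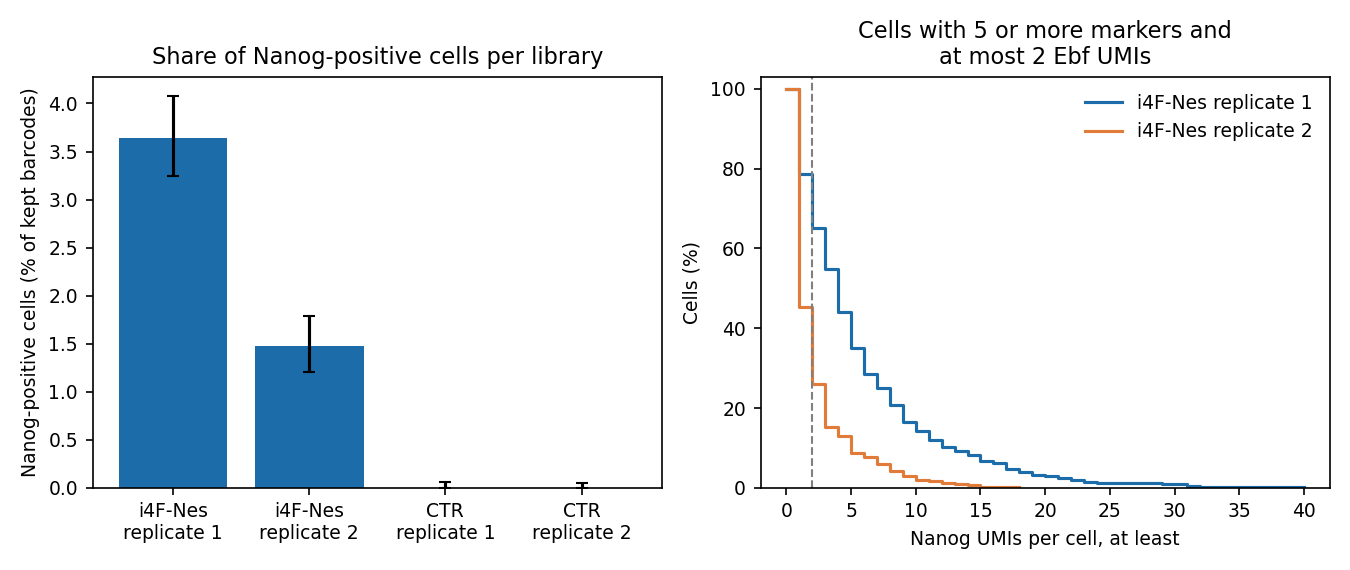
Left, share of kept barcodes that are Nanog-positive in each library (bars, with exact binomial 95% intervals): 3.64% and 1.47% in i4F-Nes, 0 in both CTR libraries. Right, among i4F-Nes cells that meet the other criteria, the percentage with at least the number of Nanog UMIs on the x axis; the dashed line marks 2 UMIs, reached by 65.1% of cells in replicate 1 and 26.0% in replicate 2.

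No CTR barcode came near the rule. The highest number of the 8 marker genes in a CTR barcode was 3 in replicate 1 and 2 in replicate 2. Any Nanog UMI was seen in 12 and 4 CTR barcodes, and none of these had more than 1. In i4F-Nes, 83.6% of the 354 barcodes with at least 2 Nanog UMIs in replicate 1 and 87.2% of the 117 in replicate 2 were counted as Nanog-positive by the whole rule.

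Cells that met every criterion except the one on Nanog were more evenly split between the libraries. There were 455 cells with at least 5 markers and at most 2 Ebf UMIs in replicate 1 and 392 in replicate 2. At least 2 Nanog UMIs were held by 65.1% of them in replicate 1 and by 26.0% in replicate 2. Nanog was at 0 in 97 and 214 of them, and at exactly 1 UMI in 62 and 76.

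Few cells lay at the limit on markers and many at the limit on Nanog. Only 3 and 4 cells missed the rule by having 4 markers in place of 5, and 5 and 6 cells passed with exactly 5. The limit on Ebf genes, transcription factors of early-born and differentiating neurons, removed 52 cells in replicate 1 and 5 in replicate 2 that met the rest. Cells with exactly 5 markers had Pou5f1 at 172 and 127 CPM (each gene's UMIs scaled to a fixed total, as counts per 1e6 UMIs), and those with 4 had 0 UMIs of it. Exactly 2 Nanog UMIs were held by 46 and 42 of the Nanog-positive cells. Nanog ranged from 2 to 40 UMIs per cell with a median of 5 in replicate 1, and from 2 to 18 with a median of 3.5 in replicate 2.

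Nanog-positive cells were the deeper barcodes of their libraries. Their median was 43184.5 UMIs in replicate 1 and 37435.5 in replicate 2, against 16353 and 15769.5 in radial glia. A threshold of 2 UMIs is easier to reach in a deep cell, and after thinning each barcode to 8000 UMIs the rule kept 78 and 20 cells. High doublet scores (Scrublet) were held by 7.43% and 6.86% of Nanog-positive cells, by 6.50% and 5.54% of all kept barcodes and by 11.3% and 8.61% of radial glia. Between 11 and 21 barcode sequences were shared by each pair of libraries, and no Nanog-positive barcode was Nanog-positive in 2 libraries.

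By the radial glia rule, a UMI of at least 3 of Hes5, Slc1a3, Sox9, Pax6 and Hes1, 280 of the 296 Nanog-positive cells (94.6%) and 91 of the 102 (89.2%) would themselves qualify. The radial glia used for comparison were the 1252 and 720 i4F-Nes cells that met this rule and held fewer than 5 of the 8 markers. Of those radial glia, 18 and 16 held any Nanog UMI. Levels below are UMIs summed over the cells of a class in a library and given as CPM. A gene was called higher or lower when it differed at least 2-fold in the same direction in both i4F-Nes libraries, among genes with at least 10 CPM in both libraries in either class.

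Of 9864 genes compared, 605 were higher in Nanog-positive cells (6.13%) and 928 were lower (9.41%). The median log2 difference over all of them was -0.07. The markers of the rule lead a group of these same cells, so this contrast carries no test. Genes low in both classes were not compared, and a gene that reached 10 CPM in Nanog-positive cells alone could hardly be called lower. The counts per gene list below therefore describe the genes that were compared and not the whole lists. Without replicate 2 the number higher was 933, and without replicate 1 it was 700.

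The 8 marker genes of the rule were high in both libraries. Lgals7 (galectin-7, a lectin of stratified epithelia) had the highest level of them, at 1208 and 1054 CPM in Nanog-positive cells and 44.96 and 104 CPM in radial glia. Cd109, a membrane protein that binds TGF-beta, was at 244 and 205 CPM against 5.51 and 15.6. Anxa1, a calcium-dependent phospholipid binding protein, was at 200 and 193 CPM against 4.88 and 11.4. Cytl1, a secreted cytokine-like protein, was at 140 and 135 CPM against 1.23 and 8.87. All marker levels were thus far above radial glia, as the rule requires. Of the Nanog-positive cells, 101 and 26 held all 8 markers.

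Among genes with at least 50 CPM, the 12 with the largest folds in both libraries were L1td1, Tppp3, Nanog, Ovol2, Pou5f1, Pmaip1, Crym, Crip1, Epcam, Timp1, Cavin1 and Cdc42ep5. Ovol2, a zinc finger factor that maintains epithelial identity, was at 73.1 and 54.8 CPM against 0.594 and 1.27 in radial glia. Cavin1, a coat protein of caveolae, was at 167 and 70.3 CPM against 2.71 and 2.79. Nanog, Tppp3 and Timp1 among the 12 were used by the rule. The 12 with the largest folds in the other direction included Fabp7, Mt3, Nrg1, Ptx3 and Neurog2. Mt3, a metallothionein of neural cells, was at 6.10 and 2.92 CPM against 630 and 724. Nrg1, a ligand of ErbB receptors, was at 151 and 145 CPM against 3688 and 3159.

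**Figure D2:**
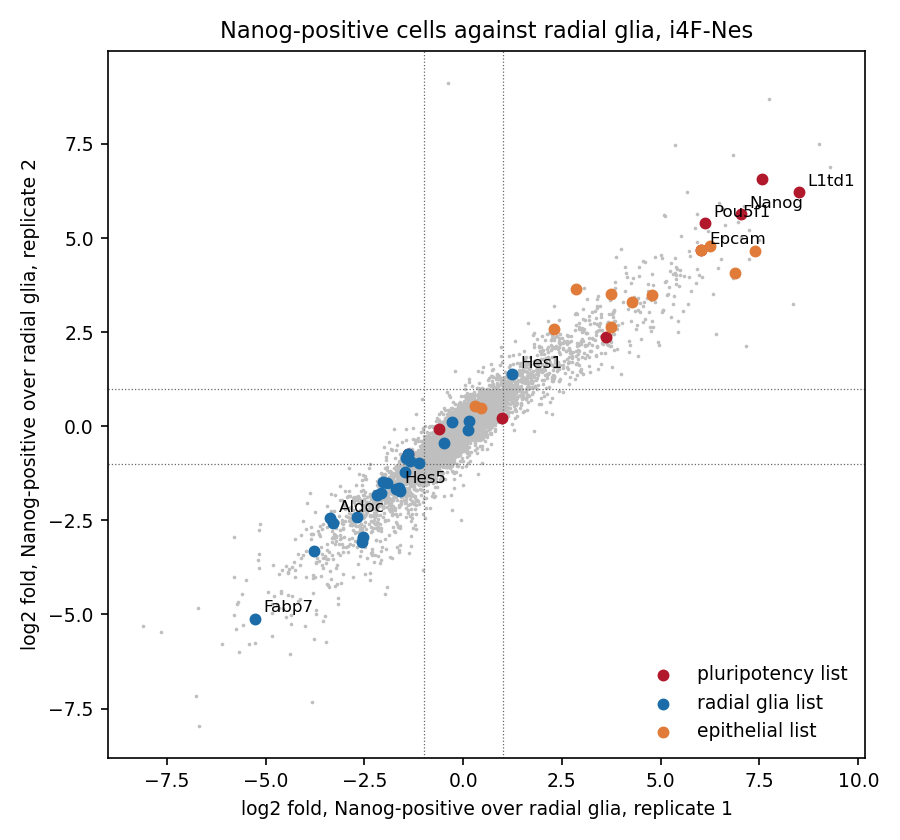
Each point is 1 of 9864 genes, with the log2 fold of Nanog-positive cells over radial glia in i4F-Nes replicate 1 (x axis) and replicate 2 (y axis); dotted lines mark 2-fold. Genes of the pluripotency list that were called lie at the upper right with the epithelial genes, most radial glia genes lie at the lower left, and Hes1 lies at the upper right.

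Pluripotency genes were higher as a small subset. Of 37 listed genes 28 had too few counts to compare, and 6 of the other 9 were higher and 0 lower. These were Nanog, Pou5f1, Gdf3, L1td1, Epcam and Lin28b, and all 6 reached 10 CPM in Nanog-positive cells only. Nanog itself, which the rule selects, was at 149.6 and 112 CPM in Nanog-positive cells and at 1.15 and 2.28 CPM in radial glia.

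Pou5f1, which encodes Oct4, was at 211 CPM in replicate 1 and 117 CPM in replicate 2. In radial glia of the same libraries it was at 3.05 and 2.79 CPM, and in CTR radial glia at 1.84 and 1.68 CPM. Both Nanog-positive values lie far above all radial glia values. The 3′ counts do not separate the endogenous gene from the cassette, and related pseudogenes of Pou5f1 and Nanog may share reads, so the source of these molecules cannot be told apart.

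L1td1, an RNA-binding protein of pluripotent cells, was at 76.7 and 56.2 CPM against 0.212 and 0.76 CPM in radial glia. Gdf3, a TGF-beta family ligand of early embryos and stem cells, was at 16.2 and 24.1 CPM against 0.0848 and 0. Lin28b, which blocks maturation of let-7 microRNAs, was at 21.7 and 16.6 CPM against 1.78 and 3.21. All 3 genes were higher in both Nanog-positive libraries than in any radial glia library.

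Genes of the list that were not compared ranged widely. Tdh and Cdh1, described below, were at 30.4 and 7.30 CPM and at 18.4 and 9.98 CPM in Nanog-positive cells. Zfp42 (Rex1), a marker of naive stem cells, was at 1.23 CPM in replicate 1 and had 0 UMIs in replicate 2. Esrrb, an orphan nuclear receptor of naive cells, had 0 UMIs in replicate 1 and 1 in replicate 2. Tdgf1 had 0 UMIs in both classes and both libraries. At this depth the low values do not show that those genes were silent.

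Of the 4 cassette factors 2, Pou5f1 and Sox2, had enough counts to compare, and Sox2 was not called. Sox2, which radial glia express by themselves, was at 135 and 176 CPM in Nanog-positive cells and at 352 and 296 CPM in radial glia. Klf4 was at 8.13 and 6.82 CPM against 7.55 and 5.07 CPM. Myc was at 6.46 and 7.79 CPM against 5.26 and 5.07 CPM. Pou5f1 was thus the only cassette gene past 2-fold in both libraries.

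Shares of cells with a UMI were compared after thinning every cell to 8000 UMIs. Pou5f1 was seen in 48.3% of thinned Nanog-positive cells in replicate 1 (69.6% unthinned) and in 41.2% in replicate 2 (61.8% unthinned). In neurons of the same libraries, a type that should lack the gene, the thinned shares were 2.05% and 1.52%, and in radial glia 2.01% and 1.51%. The Nanog-positive shares lay above that background in both libraries. Median depths before thinning were 14954 and 11972 UMIs in neurons.

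Of 24 epithelial genes 12 were compared, and 10 of these were higher and 0 lower. One of the 10 is Krt8, which the rule used. Epcam, Krt18 and Dsp reached 10 CPM in Nanog-positive cells only and so could hardly be called lower. Epcam, a cell adhesion molecule of epithelia and stem cells, was at 111 and 235 CPM against 1.70 and 9.20 CPM in radial glia. Krt18, a keratin of simple epithelia, was at 26.6 and 39.9 CPM against 0.976 and 3.55. Dsp (desmoplakin, a desmosome protein) was at 21.2 and 21.4 CPM against 0.127 and 0.844. Of 7 mesenchymal genes compared, 2 were lower (Cdh2 and Zeb1) and 2 higher (Cd44 and Fn1). Cdh2, the N-cadherin of neuroepithelium, was at 90.9 and 65.2 CPM against 657 and 566.

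Calcium-binding S100, annexin and galectin genes were higher in 12 of 13 compared of 19 listed, and 2 of the 12, Anxa1 and Lgals7, belong to the rule. S100a11 was at 635 and 694 CPM against 45.045 and 83.8 in radial glia. The whole list summed to 4646 and 4364 CPM in Nanog-positive cells and to 313 and 574 CPM in radial glia. In cells with 0 Nanog UMIs that met the other criteria it summed to 3163 and 3149 CPM. Tppp3, a tubulin-binding protein in the rule, was at 380 and 424 CPM against 6.28 and 8.44. Cdkn1a (p21, a cell cycle inhibitor and p53 target) was at 86.5 and 80.8 CPM against 13.9 and 27.1 CPM in i4F-Nes radial glia and 1.99 and 1.77 CPM in CTR radial glia. Of the 20 p53 targets compared, Cdkn1a, Pmaip1 and Perp were higher and 0 lower. Against radial glia matched on UMIs per cell the log2 difference of Cdkn1a was 0.96 and it was not called.

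Immediate early genes, which respond within minutes to growth factors and to tissue dissociation, were higher in 10 of 14 compared. Fos, a subunit of the AP-1 transcription factor, was at 579 and 500 CPM against 79.1 and 108 CPM, and Junb, another subunit of AP-1, at 123 and 119 CPM against 4.92 and 11.1. The part of dissociation in these values was not tested. The whole immediate early list summed to 3558 and 3142 CPM in Nanog-positive cells. In cells with 0 Nanog UMIs that met the other criteria it summed to 2761 and 2941 CPM. Targets and inhibitors of FGF and ERK signalling were higher in 6 of 13. Among them Dusp6, an ERK phosphatase, was at 43.1 and 28.0 CPM against 4.96 and 5.07 CPM. Spry4, a feedback inhibitor, was at 34.0 and 20.9 CPM against 2.84 and 5.403. This list summed to 814 and 642 CPM in Nanog-positive cells. It summed to 950 and 690 CPM in cells with 0 Nanog UMIs that met the other criteria, so it was not particular to Nanog-positive cells. Of 12 interferon and MHC class I genes 8 were not compared and 4 were higher (Ifitm2, Ifitm3, B2m and H2-D1), among them Ifitm3, a membrane protein that restricts viral entry, at 95.4 and 76.7 CPM against 2.67 and 6.84.

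Radial glia genes were lower in 15 of 24 compared and higher in 1, with a median log2 difference of -1.68. The list includes the 5 genes that chose the radial glia, of which Slc1a3, Pax6 and Hes5 were lower and Hes1 higher. The levels of these 5 in radial glia follow in part from that choice. Fabp7, a fatty acid binding protein and classical radial glia marker, was at 88.7 and 89.8 CPM in Nanog-positive cells against 3397 and 3106 CPM in radial glia, 38.3 and 34.6 times lower. Hes5 was at 206 and 234 CPM against 673 and 743. Hes1 was the exception, at 419 and 459 CPM against 178 and 176 CPM. Both genes helped to choose the radial glia, and each call depended on which radial glia were used. Against the stricter radial glia defined below Hes1 was not called (log2 difference 0.87), and against radial glia matched on UMIs per cell Hes5 was not called (log2 difference -0.91).

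Among 14 genes of the Notch pathway, Hes1 was higher and 6 were lower (Notch3, Dll3, Dll1, Mfng, Hes5 and Notch2). Hes1 and Hes5 helped to choose the radial glia. The receptor Notch3 was at 0.726 and 1.46 CPM against 35.0 and 32.3. Of 10 Wnt genes 3 were lower (Fzd8, Wnt7b and Wnt7a) and 0 higher; the receptor Fzd8 was at 5.52 and 7.55 CPM against 86.4 and 75.6. Of 4 retinoic acid genes 3 were higher. Among them Rarg, a retinoic acid receptor, was at 32.4 and 25.8 CPM against 3.56 and 3.63, and Aldh1a2, a retinoic acid synthesising enzyme, at 11.98 and 18.5 CPM against 0.127 and 0.338. The whole retinoic acid list summed to 308 and 294 CPM in Nanog-positive cells and to 167 and 217 CPM in radial glia. It summed to 379 and 420 CPM in cells with 0 Nanog UMIs that met the other criteria, so it was not particular to Nanog-positive cells.

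**Figure D3:**
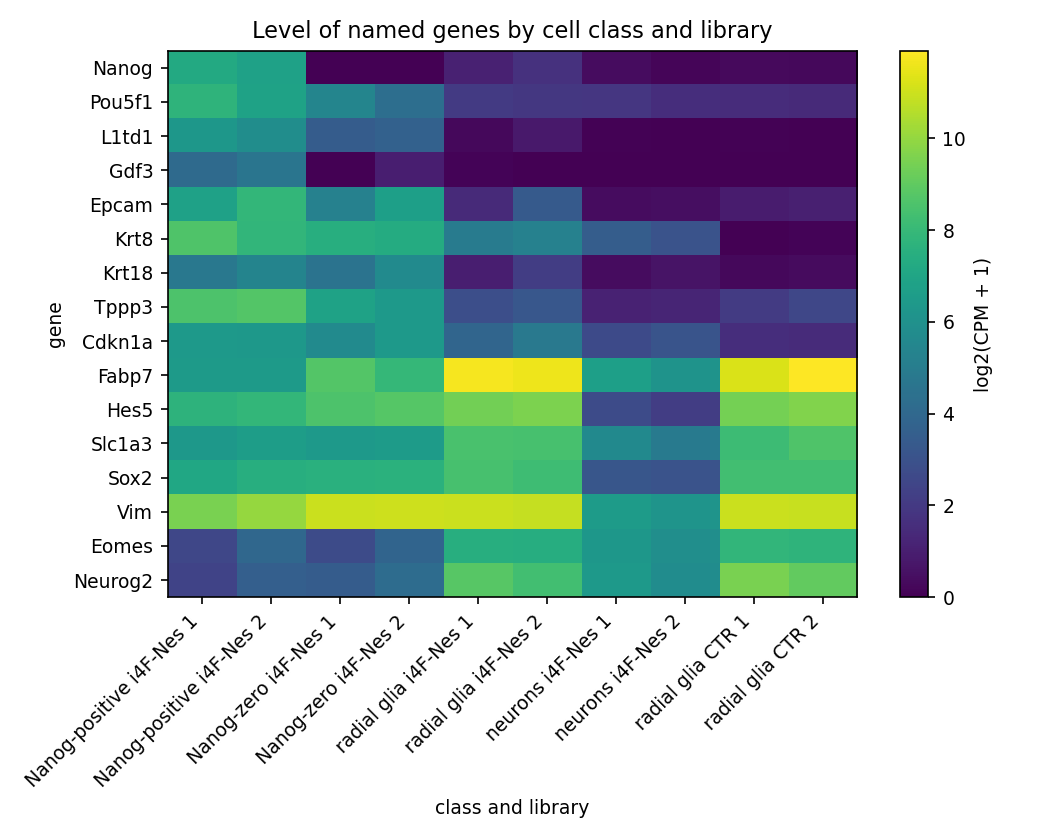
Colour gives log2(CPM + 1) of named genes (rows) in each cell class and library (columns). Pou5f1, L1td1 and Epcam are bright in the 2 Nanog-positive columns and dark in radial glia and neurons, Fabp7 shows the reverse, and Krt8 is dark in both CTR radial glia columns.

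Of 11 intermediate progenitor genes compared 8 were lower and 0 higher. Eomes, the defining transcription factor of those cells, was at 4.79 and 14.6 CPM against 175 and 170 CPM in radial glia, and the proneural factor Neurog2 was at 4.21 and 11.2 CPM against 444 and 318. Of 18 neuron genes 9 were lower and 1, Stmn2, was higher. The counts depended on the radial glia used. Against radial glia with at least 4 of 5 markers and no Neurod6 UMI, 4 of 14 neuron genes were higher and 2 lower, 4 of 9 intermediate progenitor genes were lower and 1 (Btg2) higher, and Neurod6 and Neurod2 turned to log2 differences of 6.03 and 0.13. Neurod6 and Neurod2 are transcription factors of cortical projection neurons, and Neurod6 was used to choose that stricter class. Per cell, the neuron list took a median of 0.207% of UMIs in Nanog-positive cells and 0.0988% in radial glia in replicate 1, and 0.117% and 0.101% in replicate 2. At least 3 of 5 neuron markers were seen in 62 and 10 Nanog-positive cells, and the part of free RNA or doublets in this was not tested.

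Markers of several other cell types were low. No gene of the lists for meningeal fibroblasts, endothelial cells, mural cells, microglia or choroid plexus reached 10 CPM in both libraries of either class, and their summed levels in Nanog-positive cells were 2.43 to 12.6 CPM per list. Gad2, Adarb2 and Sp8, which interneurons express, were higher. Gad2, an enzyme of GABA synthesis, was at 19.8 and 27.0 CPM against 2.71 and 3.38. Of the 5 oligodendrocyte precursor genes Sox10 alone was compared, and it was higher; the list summed to 46.5 and 35.3 CPM against 9.12 and 31.2. The part of such cells in the results was not tested. Erythroid genes summed to 45.2 CPM in replicate 1 and 4167 CPM in replicate 2, where 1 cell held 64.2% of the 17094 globin UMIs.

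**Figure D4:**
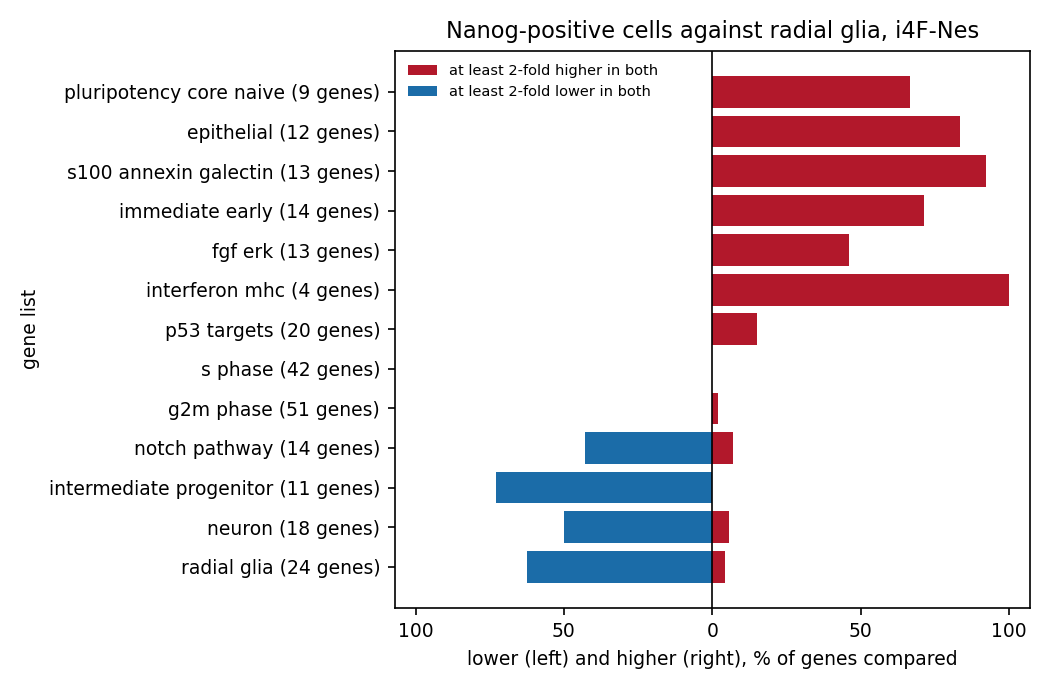
For each gene list, the percentage of compared genes at least 2-fold higher (right) or lower (left) in both libraries in Nanog-positive cells than in radial glia, with the number compared in brackets. Lists count compared genes only, and include rule genes and the genes that chose the radial glia. Epithelial, S100 and immediate early genes lie to the right, radial glia and intermediate progenitor genes to the left, and S phase genes at 0.

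Cell cycle genes were present at levels near those of radial glia. None of 42 S phase genes and 1 of 51 genes of G2 and M phase (Anln) passed 2-fold. In thinned cells, Mki67, a protein of cycling cells, was seen in 66.9% and 69.6% of Nanog-positive cells (87.2% and 80.4% unthinned) and in 43.5% and 48.2% of radial glia. With radial glia matched on UMIs per cell the median log2 difference of the G2 and M list was -0.38, against 0.28 with all radial glia. The direction for this list thus changed with depth matching.

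Nanog-positive cells were next compared with the cells of the same libraries that met every other criterion but had 0 Nanog UMIs. UMIs were summed per class and library and tested by quasi-likelihood in edgeR, with the library as a block and Benjamini-Hochberg adjustment at 0.05, leaving out Nanog and the genes of the rule. Of 14543 genes tested, 520 were higher (3.58%) and 629 lower (4.33%). Median depth was 31469 and 25500 UMIs in Nanog-zero cells, below that of Nanog-positive cells. With cells matched on UMIs 229 were higher and 538 lower, and with no replicate block 59 and 104. With radial glia left out of the fit 934 were higher and 991 lower.

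A subset of pluripotency genes was higher in the cells with Nanog. Of 37 listed genes 16 were tested, and 6 were higher (Pou5f1, Gdf3, L1td1, Tdh, Cdh1 and Epcam) and 0 lower. Pou5f1 was at 211 and 117 CPM against 42.2 and 18.5 CPM in Nanog-zero cells, a log2 fold of 2.49 ± 0.167 (SE, edgeR adjusted p = 0.000546). L1td1 was at 76.7 and 56.2 CPM against 10.2 and 12.1 CPM, a log2 fold of 2.56 ± 0.258 (edgeR adjusted p = 0.00264). The same 6 genes passed with cells matched on UMIs, and 3 of them (L1td1, Gdf3 and Pou5f1) passed with no replicate block.

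Tdh, threonine dehydrogenase of mouse embryonic stem cells, was at 30.4 and 7.30 CPM against 3.70 and 1.87. Cdh1, the E-cadherin of epithelia and stem cells, was at 18.4 and 9.98 CPM against 4.32 and 3.22. Both Nanog-positive libraries were above both Nanog-zero libraries for each gene. Sox2, with a log2 fold of -0.28 (adjusted p = 0.358), Klf4, -0.59 (adjusted p = 0.227), and Myc, -0.83 (adjusted p = 0.0787), did not pass edgeR's threshold.

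Among genes with at least 20 CPM, Pmaip1 (Noxa, a proapoptotic BCL2 family protein), Crym (a thyroid hormone binding protein), Enpp3 (an ectonucleotidase), Tfap2a (a transcription factor of ectoderm and neural crest), Cdc42ep5 (a Cdc42 effector) and 1700019D03Rik had large increases beside L1td1 and Pou5f1. Pmaip1 was at 72.0 and 137 CPM against 19.1 and 20.9, a log2 fold of 2.40 ± 0.233 (edgeR adjusted p = 0.00319). Crym had a log2 fold of 2.39 ± 0.311 (edgeR adjusted p = 0.0132), and did not pass with matched cells (edgeR adjusted p = 0.143, the highest of its alternatives, whose lowest was 2.98e-26). With no replicate block Pmaip1, Enpp3 and Tfap2a did not pass (adjusted p = 0.0598, 0.0589 and 0.0903). Of 18 epithelial genes 7 were higher and 0 lower, and none of the 18 passed with no replicate block.

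Radial glia genes were lower still in Nanog-positive cells. Of 24 tested, 14 were lower and 1, Hes1, higher, with 12 and 1 in cells matched on UMIs and 5 and 0 with no replicate block. Fabp7 was at 88.7 and 89.8 CPM against 417 and 246 CPM in Nanog-zero cells, a log2 fold of -1.85 ± 0.231 (edgeR adjusted p = 0.0317). Aldoc, an aldolase of radial glia and astrocytes, was at 43.9 and 50.9 CPM against 332 and 199 (log2 fold -2.46 ± 0.293, edgeR adjusted p = 0.0219), and missed the threshold with the 2 classes fitted alone (edgeR adjusted p = 0.0632, the highest of its alternatives, whose lowest was 1.35e-23). Of 18 neuron genes 10 were lower and 0 higher, and 2 were lower with no replicate block.

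The G2 and M phase list was higher in 41 of 51 genes and lower in 0, while 1 of 42 S phase genes was higher. With cells matched on UMIs none of the 51 passed, and with no replicate block 8 did. Mki67 was at 293 and 404 CPM against 154 and 204, a log2 fold of 0.97 ± 0.106 (edgeR adjusted p = 0.00216), and of 0.35 in matched cells (edgeR adjusted p = 0.628, the highest of its alternatives, whose lowest was 1.06e-22). Matching lowered the median log2 fold of the list from 0.95 to 0.45 and also left fewer cells.

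Levels of some genes also followed the number of Nanog UMIs within the cells that met the other criteria. Pou5f1 was at 42.2, 66.3, 105.04, 187 and 314 CPM in replicate 1 in cells with 0, 1, 2 to 3, 4 to 7 and 8 or more Nanog UMIs. In replicate 2 it was at 18.5, 48.5, 51.3, 125 and 269.9 CPM in the same order. Aldoc went the other way, from 332 to 22.2 CPM in replicate 1 and from 199 to 21.2 CPM in replicate 2 between the first and the last bin. Cytl1, a gene of the rule, was at 322 and 310 CPM in cells with 0 Nanog UMIs and at 101 and 19.99 CPM in cells with 8 or more. Not every gene examined rose or fell steadily. In replicate 1 Fabp7 was at 55.4 CPM at 4 to 7 Nanog UMIs and at 102 CPM at 8 or more. In replicate 2 Krt8, a gene of the rule, was at 308 and 180 CPM in the same bins. Median depth was 31469 and 25500 UMIs at 0 and 50948 and 48082 at 8 or more, and its part in these levels was not tested.

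**Figure D5:**
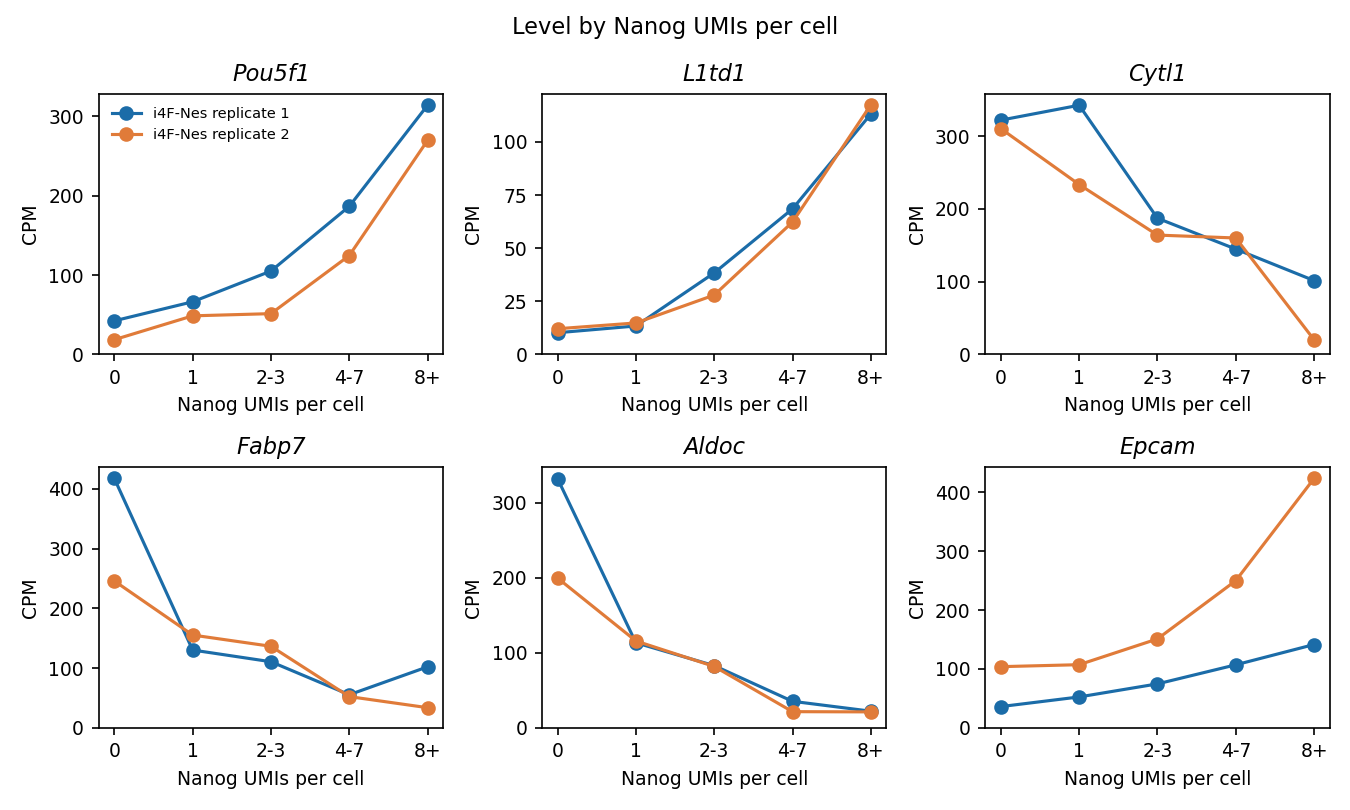
Level in CPM (y axis) of 6 genes in i4F-Nes cells with at least 5 markers and at most 2 Ebf UMIs, binned by Nanog UMIs per cell (x axis), 1 line per library. Pou5f1, L1td1 and Epcam are highest at 8 or more Nanog UMIs in both libraries, whereas Cytl1 and Aldoc are highest at 0 or 1.

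Across single Nanog-positive cells, the genes whose level correlated most with Nanog in both libraries were Cdc42ep5 (r of 0.52 and 0.49 over 296 and 102 cells), Pou5f1 (0.44 and 0.45), S100a11, Pmaip1, Ifitm2, Slc2a3, Enpp3 and Tmem123, of 11579 genes compared. Mpped2 (-0.44 and -0.40), Gpm6b, Ptprz1, Rgcc, Dbi, Kirrel3, Vim and Astn1 were the most negative. These cells share their library and differ in depth, so the values are a description.

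Radial glia outside the rule were compared between i4F-Nes and CTR. Of 14876 genes tested with edgeR's quasi-likelihood test, 4 were higher in i4F-Nes (0.0269%) and 0 lower (0.0%), with 980 at an unadjusted p under 0.05. By DESeq2 100 were higher and 21 lower. The 4 were Crabp2 and 3 genes of the rule (Krt8, Lbhd2 and Ebf2), so Crabp2 alone counts as a test result. The rule genes came from a contrast of these libraries and limit which cells are radial glia here, so their levels are a description with no test.

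Crabp2, a retinoic acid binding protein, was at 17.5 and 21.02 CPM in i4F-Nes radial glia, against 1.47 and 1.06 in those of CTR (log2 fold 3.84 ± 0.271, edgeR adjusted p = 0.0115). Both i4F-Nes libraries were above both CTR libraries. Krt8 was at 29.9 and 36.1 CPM against 0 and 0.0884. Nanog was at 1.15 and 2.28 CPM against 0.221 and 0.177, which is low in all 4 libraries. Pou5f1 did not pass (edgeR adjusted p = 0.823, with a range of 0.251 to 1.0 over its alternatives).

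The call of Crabp2, which is outside the rule, was kept with the replicate block, by DESeq2, with RLE size factors and with no filter. It was lost with high doublet scores removed, where 0 genes passed in either direction and 767 were at an unadjusted p under 0.05. Crabp2 then had a log2 fold of 3.27 (edgeR adjusted p = 0.0521). With the stricter radial glia 2 other genes passed, and Crabp2 had a log2 fold of 2.16 (edgeR adjusted p = 0.201, the highest of its alternatives, whose lowest was 1.68e-20). Leaving out 1 library gave 119 higher and 10 lower genes (i4F-Nes replicate 1), 67 and 1 (i4F-Nes replicate 2), 134 and 13 (CTR replicate 1) and 380 and 147 (CTR replicate 2), where the lone library is assumed to vary like the other group. The Ebf genes, which the rule limits, summed to 3.12 and 3.41 CPM in Nanog-positive cells. In i4F-Nes radial glia they summed to 36.7 and 37.8 CPM. The part of free RNA from Nanog-positive cells or from other i4F-Nes cells was not tested.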

How the data were processed

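Rostral neocortex at embryonic day 15.5 was profiled with 10x Genomics 3′ v3.1 chemistry after papain dissociation, per the labels' protocols. The deposited matrices hold UMI counts made by the authors with cellranger 7.0.1, per the file headers, on mm10, per the submitters' processing notes. No source used here names the annotation release, intron counting or a step against free RNA. Groups came from the sample titles.

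The cells, gene lists and named-gene rules were chosen with earlier results of these data known. Counts were summed per class and library. Genes were named as the 12 with the largest difference in each direction at 50 CPM or more, the 8 most changed in each direction at 20 CPM or more in the Nanog test, and listed genes. Tests used edgeR 4.0.16 (TMM, filterByExpr, robust quasi-likelihood fit), with DESeq2 1.42.0 as an alternative. The library was the block in the Nanog test because both classes come from the same library. Matching paired cells within 0.1 log10 UMIs, and in the Nanog test left 90 and 100 pairs with medians of 31531.5 and 31634 UMIs in replicate 1 and 37150 and 32938.5 in replicate 2. Doublets were scored with Scrublet in scanpy 1.11.5 and kept. On simulated data the Nanog test recovered 69% of 2-fold and 96% of 4-fold changes, with 8 false calls. The simulated libraries differed only in depth, had a fixed spread, and were changed in well-counted genes only. These rates do not cover genes with few counts. Alternatives changed the thresholds, the filter, the scaling, the block, the radial glia and the libraries used. Sequences came from RefSeq, and 10 of 15 genes looked up had a window.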

Additional observations from a re-analysis of the deposited data

Results flagged for a closer look

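The barcodes removed by the filters, which no comparison used, also held UMIs of the rule genes in i4F-Nes. In the removed barcodes the lower of the 2 i4F-Nes libraries was at 0.411 CPM for Nanog, 2.47 for Cytl1, 2.67 for Lbhd2, 1.03 for Anxa1, 9.66 for Cd109, 3.29 for Timp1, 19.5 for Krt8 and 40.1 for Lgals7. Each of these lay above both CTR libraries, where Nanog, Cytl1, Lbhd2, Cd109 and Krt8 had 0 UMIs. The Nanog value rests on 6 and 2 UMIs. Pou5f1 and Tppp3 were not above CTR in both i4F-Nes libraries.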

How the results depend on the processing

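The mean i4F-Nes share of Nanog-positive cells was 2.56%, fell to 0.76% when barcodes were thinned before the rule, and was 6.76% with 5 markers alone, a setting chosen after the data were seen. Leaving out a library gave 1.47% to 3.64%. Thinned to 5000 UMIs and unthinned, the mean shares of Nanog-positive cells with a UMI were 44.0% and 100% for Nanog, 38.7% and 65.7% for Pou5f1, 56.9% and 83.8% for Mki67, and 25.9% and 68.6% for Fabp7. Against radial glia, a 3-fold limit gave 383 higher and 505 lower genes, no filter beyond 1 count gave 1791 and 1813, and leaving out a library gave 700 to 933 higher and 1158 to 1171 lower. Neurod2 and Neurod6 turned to 0.13 and 6.03 against the stricter radial glia.

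For Nanog-positive against Nanog-zero cells the higher and lower counts were 59 and 104 with no replicate block, 974 and 1116 without a filter, 934 and 991 with the 2 classes alone, and 26 and 48 with these and no replicate block (chosen after the data were seen). Matching on UMIs gave 229 higher, and adding cells with 1 Nanog UMI to the other class gave 339. For radial glia between groups the counts were 402 and 197 with the replicate block, 100 and 21 by DESeq2, 187 and 25 without a filter, 7 higher with RLE size factors, 2 higher with stricter radial glia and 0 with high doublet scores removed. Leaving out a library gave 67 to 380 higher and 1 to 147 lower. Deviations of same-numbered libraries correlated at r = 0.50 over 14876 genes, but nothing in the labels pairs them. The cause of these shifts was not tested. With 2 libraries a group, and no count of embryos, the precision is limited.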

Other observations

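Imprinted genes went both ways in Nanog-positive cells. Of 15 compared with radial glia, Peg10, Dlk1 and Peg3 were higher and H19, Mest and Plagl1 lower. Peg10, a retrotransposon-derived gene, was at 115 and 383 CPM against 13.9 and 30.2 CPM, and H19, a maternally expressed noncoding RNA, at 0.944 and 0.487 CPM against 15.1 and 19.2. None of 11 genes of DNA methylation and Polycomb was called in either direction.

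Genes of cortical area patterning were lower in 5 of 11 compared (Emx1, Nr2f1, Pax6, Lhx2 and Dmrta2) and higher in 2 (Etv5 and Sp8). Pax6 helped to choose the radial glia. Emx1, a homeobox gene of the dorsal telencephalon, was at 11.1 and 11.4 CPM against 108 and 68.2 CPM. Tfap2a and Sox10, known from the neural crest, were the 2 higher genes of 4 neural crest and placode genes compared. Sox10 was at 36.6 and 27.0 CPM against 0.254 and 6.16 CPM in radial glia, and at 44.7 and 83.3 CPM in Nanog-zero cells.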
